A study of Mus musculus with 6 samples.

Results

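Transcription factors that specify glandular and columnar epithelium were followed in 6 oesophageal tumours of mice. The genes were the forkhead genes Foxa1, Foxa2 and Foxa3, the epithelial ETS genes Spdef, Ehf and Elf3, the zinc finger genes Gata4 and Gata6, and the HMG box gene Sox9. They were chosen by name, and all 9 were found among the 41253 gene names of the files. In GENCODE M21, on build GRCm38, Foxa2 and Ehf are on chromosome 2, and Elf3 is on chromosome 1, Foxa3 on 7, Sox9 on 11, Foxa1 on 12, Gata4 on 14, Spdef on 17 and Gata6 on 18. The comparison asked which of these regulators, and with them which glandular lineage, went with the keratins of simple epithelium.

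RNA sequencing measured oesophageal squamous cell carcinomas of C57BL/6 mice. One group carried the genotype Ptpro-/- and is labelled Ptpro-KO, and the other was wild type and is labelled WT, with 3 mice in each. All mice had drunk water with 4NQO, a DNA-damaging carcinogen, from 6 weeks of age for 16 weeks, with a follow-up of 12 weeks. The design text gives an age of 34 weeks, while an age label gives week 6. Mice with heavy weight loss were killed earlier. The makeup of the Ptpro allele was not given in the sources used here.

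FOXA proteins are pioneer factors that open chromatin in organs derived from the gut tube, among them liver, lung, pancreas, stomach and intestine. GATA4 and GATA6 mark columnar epithelium of the glandular stomach, where the mouse oesophagus and forestomach are lined by squamous epithelium. SOX9 marks ducts and progenitors of several glands and is also the master regulator of cartilage, SPDEF drives goblet and mucous cell differentiation, ELF3 is typical of simple epithelia, and EHF is expressed in both stratified and simple epithelia. Simple keratins, such as the pair Krt8 and Krt18, form the filaments of single-layered epithelia and are scarce in mature squamous epithelium.

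The libraries held 35551442, 39827467 and 35845461 reads for Ptpro-KO replicates 1 to 3, and 37595506, 25745240 and 29406034 for WT replicates 1 to 3. CPM below is the read count of a gene scaled to a common library size after TMM normalisation, and a gene was called where its p from edgeR's quasi-likelihood test, adjusted over all tested genes, was under 0.05. Ptpro itself went against the labels, with 1094, 1824 and 1921 reads in the libraries labelled Ptpro-KO and 174, 9 and 67 in those labelled WT (log2 fold change 3.97, SE 0.85, edgeR adjusted p = 0.0617), so every direction below is between libraries as labelled. Xist and Y-linked reads showed 2 females and 1 male among the mice labelled Ptpro-KO, and 1 female and 2 males among those labelled WT. Squamous keratins were abundant in all 6 libraries: 11 listed genes summed to 28200, 27900 and 23910 CPM in Ptpro-KO replicates 1 to 3, and to 79610, 71830 and 77410 CPM in WT replicates 1 to 3. The labelled tissue was thus matched by its keratins in every library, and some libraries also held transcripts of other tissues. Ptpro-KO replicate 3 stood apart by genes of the glandular stomach. A list of 20 stomach genes summed to 20370 CPM there, against 43.0 and 7.86 CPM in Ptpro-KO replicates 1 and 2, and 5.44, 1.19 and 5.08 CPM in the WT libraries, and 19 of the 20 were highest in Ptpro-KO replicate 3. Ptpro-KO replicate 2 stood apart by a thyroid transcript. Tg, the thyroglobulin gene, had 771.9 CPM there, against 2.59 and 1.63 CPM in Ptpro-KO replicates 1 and 3 and 0.694, 1.11 and 0.568 CPM in the WT libraries. The 12 thyroid genes together summed to 32.3, 828.2 and 190.0 CPM in Ptpro-KO replicates 1 to 3, and to 51.7, 43.4 and 25.0 CPM in WT replicates 1 to 3. Of these 12 genes, 5 were highest in Ptpro-KO replicate 3 and 4 in Ptpro-KO replicate 2. Without Tg, an alternative chosen after seeing the data, the other 11 summed to 29.7, 56.4 and 188.3 CPM in Ptpro-KO replicates 1 to 3 and to 51.0, 42.3 and 24.4 CPM in WT replicates 1 to 3. A list of 12 skeletal muscle genes summed to 16540, 6409 and 96.6 CPM in Ptpro-KO replicates 1 to 3, and to 15890, 63.5 and 11140 CPM in WT replicates 1 to 3. The fold changes of the tested factors and simple keratins are therefore also given without Ptpro-KO replicate 3.

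Promoter sequences are shown for Foxa1, the keratins Krt8 and Krt18, and 3 of 4 stomach genes with a usable promoter sequence. All 4 had nearly all of their reads in the same library as Gata4. They come from RefSeq, build GRCm38.p6, and each is the stretch before the gene's start, 250 bases at most and cut where an annotated exon begins. Such windows could be used for 5 of the 9 factors, namely Foxa1, Foxa2, Foxa3, Spdef and Elf3. Capitals mark matches, on either strand, to the letters of the FOXA motif (TGTTTAC or TGTTTGC), the GATA motif (AGATAA or TGATAA) and the ETS motif (AGGAAG), and no marked matches overlap. Among 32851 RefSeq windows of 250 bases, 7.29% held the FOXA letters, 16.6% the GATA letters and 29.5% the ETS letters, and 9.42% held the SOX letters (AACAAT), which were in none of the 6 stretches shown.
Foxa1, chr12:57546122-57546361, minus strand: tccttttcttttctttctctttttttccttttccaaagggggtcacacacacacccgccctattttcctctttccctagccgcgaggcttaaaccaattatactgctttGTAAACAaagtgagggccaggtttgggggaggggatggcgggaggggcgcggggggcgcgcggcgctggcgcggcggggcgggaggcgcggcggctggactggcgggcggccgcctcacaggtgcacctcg
Krt8, chr15:102004483-102004592, minus strand: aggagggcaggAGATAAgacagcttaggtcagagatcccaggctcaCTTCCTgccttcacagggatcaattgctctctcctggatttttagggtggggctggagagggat
Krt18, chr15:102027966-102028179, plus strand: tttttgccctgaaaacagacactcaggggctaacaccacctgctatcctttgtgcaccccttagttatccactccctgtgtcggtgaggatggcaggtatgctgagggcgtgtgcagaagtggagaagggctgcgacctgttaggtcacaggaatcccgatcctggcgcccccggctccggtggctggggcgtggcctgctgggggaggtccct
Gkn1, chr6:87350943-87351165, minus strand: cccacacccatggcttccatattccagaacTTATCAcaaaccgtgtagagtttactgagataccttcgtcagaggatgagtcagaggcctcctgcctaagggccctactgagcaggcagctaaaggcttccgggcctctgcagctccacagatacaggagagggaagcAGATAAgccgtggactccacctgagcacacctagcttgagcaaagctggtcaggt
Gkn2, chr6:87373115-87373356, plus strand: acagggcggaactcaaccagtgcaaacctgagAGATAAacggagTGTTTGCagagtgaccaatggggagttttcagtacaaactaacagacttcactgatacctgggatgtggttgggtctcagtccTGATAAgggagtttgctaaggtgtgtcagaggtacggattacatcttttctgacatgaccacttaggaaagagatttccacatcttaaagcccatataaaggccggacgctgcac
Muc6, chr7:141655394-141655643, minus strand: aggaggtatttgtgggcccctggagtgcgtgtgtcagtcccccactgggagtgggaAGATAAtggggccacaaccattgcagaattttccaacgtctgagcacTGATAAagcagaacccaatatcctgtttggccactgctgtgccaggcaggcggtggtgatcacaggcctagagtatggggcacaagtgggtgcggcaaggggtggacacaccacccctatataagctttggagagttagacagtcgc
The 3 stomach genes, picked after their values were seen, held 2 GATA matches each, and Gkn2 also held 1 FOXA match. Krt8 held 1 GATA and 1 ETS match, Foxa1 held 1 FOXA match, and Krt18 held none. The other stomach gene with a window, the pepsinogen gene Pgc, had 99.9% of its CPM in Ptpro-KO replicate 3 and is not shown. It held 1 ETS match and no GATA match, so the matches of the 3 genes shown cannot be set against the share over all windows. The Foxa1 stretch lies within the span that GENCODE M21 gives the gene, outside its annotated exons. The matches describe the letters only.

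**Figure D1:**
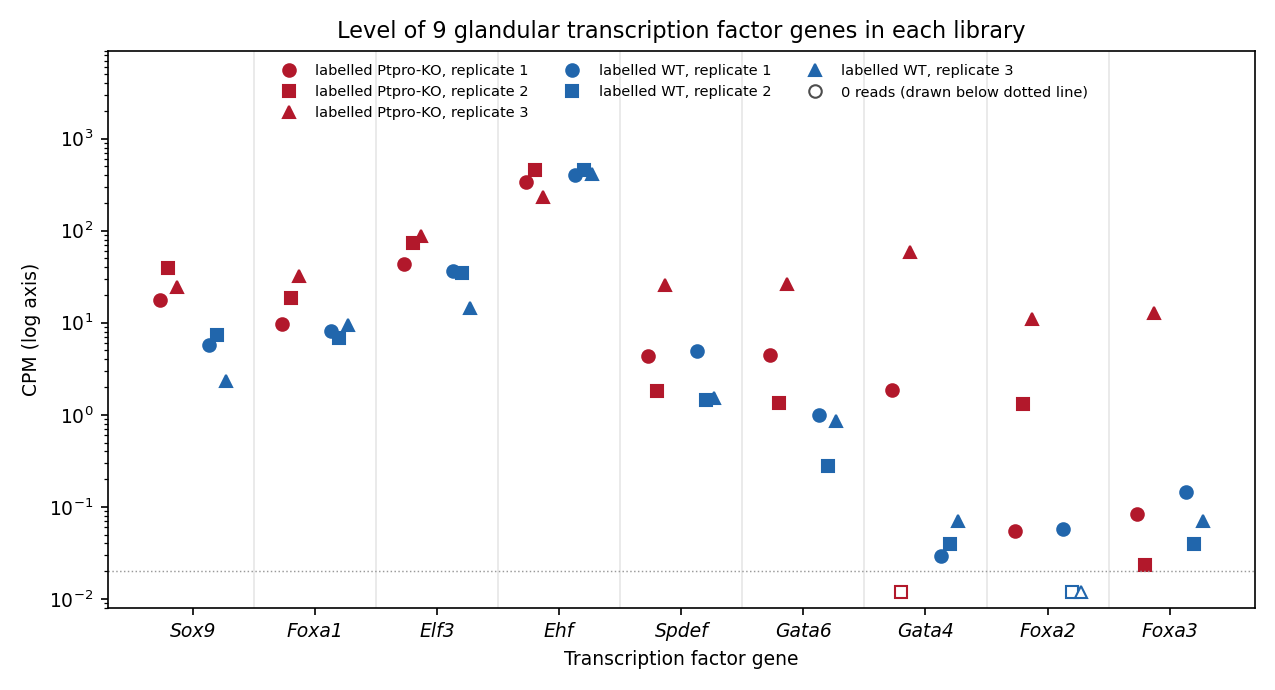
CPM of the 9 transcription factor genes on a log axis, 1 point per library, with libraries labelled Ptpro-KO in red on the left of each gene and those labelled WT in blue on the right; open symbols are libraries with 0 reads. Sox9, Foxa1, Elf3 and Gata6 have all 3 red points above all 3 blue ones, and Gata4, Foxa2 and Foxa3 have 1 red triangle, Ptpro-KO replicate 3, far above the rest.

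The 9 genes differed in their pattern across the libraries. Sox9, Foxa1, Elf3 and Gata6 were higher in every library labelled Ptpro-KO than in every library labelled WT. Gata4, Foxa2, Foxa3, Gata6 and Spdef had most of their 6-library CPM in the single library with stomach transcripts, Ptpro-KO replicate 3. Ehf, the most abundant of the 9, had the lowest value of all 6 libraries in that one. None of the 6 genes that could be tested (Foxa1, Spdef, Ehf, Elf3, Gata6 and Sox9) passed an adjusted p of 0.05 in edgeR, whereas over all 17663 tested genes 1.81% were called higher and 2.29% lower. Their unadjusted p was under 0.05 for 4 genes, against 25.0% of all tested genes in either direction. DESeq2 called Foxa1, Elf3, Gata6 and Sox9 higher, and none lower, while it called 9.76% higher and 8.57% lower of all genes to which it gave an adjusted p. Called by limma-voom were 0 of the factors. Separation of the groups, found for 4 of the 6 tested factors, held for 16.8% of all tested genes with the libraries labelled Ptpro-KO on top. The median log2 fold change of the 6 was 1.66, against 0.034 for all tested genes, and 0.91 without Ptpro-KO replicate 3. Foxa2, Foxa3 and Gata4 had too few reads outside Ptpro-KO replicate 3 to be tested. With bulk tissue, fewer cells of a type and less RNA per cell cannot be told apart.

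Sox9 was the factor closest to passing the test. It had 641, 1675 and 930 reads in Ptpro-KO replicates 1 to 3, against 198, 185 and 66 in WT replicates 1 to 3. Scaled for library size these were 17.7, 39.2 and 24.4 CPM in replicates 1 to 3 labelled Ptpro-KO, and 5.73, 7.35 and 2.34 CPM in those labelled WT. The groups did not overlap, and the lowest library labelled Ptpro-KO was over 2 times the highest labelled WT. The means of 27.1 ± 11.0 CPM in the libraries labelled Ptpro-KO and 5.14 ± 2.56 CPM in those labelled WT (SD, n = 3 each) gave a 5.27-fold difference, with a log2 fold change of 2.40, SE 0.51 and an edgeR adjusted p of 0.0600. Among the 9 factors, Sox9 alone was highest in Ptpro-KO replicate 2, the library with the Tg reads. Its log2 fold change was 2.47 (SE 0.58) without Ptpro-KO replicate 3, and from 2.02 to 2.74 when each library in turn was left out. An exact permutation test on log2 CPM (two-sided) returned p = 0.1 for Sox9, Foxa1, Elf3 and Gata6, which is the lowest value that 3 libraries per group permit. In the authors' gene FPKM values Sox9 had 4.85, 11.0 and 6.76 in Ptpro-KO replicates 1 to 3, against 1.47, 2.07 and 0.615 in WT replicates 1 to 3.

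Sox9 also builds cartilage, and cartilage genes had fold changes of both signs. The fibrillar collagen Col11a1 had 13.6, 43.6 and 11.1 CPM in Ptpro-KO replicates 1 to 3, against 2.37, 1.87 and 5.15 CPM in WT replicates 1 to 3, with no overlap of the groups (log2 fold change 2.86, SE 0.69, edgeR adjusted p = 0.0779). Another cartilage collagen, Col9a3, had a log2 fold change of 2.33 (SE 0.78, edgeR adjusted p = 0.138). The cartilage collagen Col2a1, whose gene SOX9 activates directly, had 0.0828, 0.445 and 0.158 CPM in Ptpro-KO replicates 1 to 3, and 0.376, 0.715 and 1.21 CPM in WT replicates 1 to 3. Acan, the gene of the proteoglycan aggrecan, had at most 0.0702 CPM in any library. Of 13 cartilage genes found in the files, 7 were tested and 0 were called by edgeR (4 at an unadjusted p under 0.05, 4 by DESeq2), and the list summed to 46.6, 65.3 and 62.9 CPM in Ptpro-KO replicates 1 to 3 and 72.7, 69.4 and 105.7 CPM in WT replicates 1 to 3. That order rests on Sox6, the most abundant of the 13. Without it, an alternative chosen after seeing the data, the other 12 summed to 22.7, 53.4 and 32.9 CPM in Ptpro-KO replicates 1 to 3, above the 8.15, 5.05 and 11.6 CPM of WT replicates 1 to 3. DESeq2, which called Sox9, called Col11a1, Col9a3 and Sox5 higher and Sox6 lower. The SoxD genes Sox5 and Sox6, partners of SOX9 in cartilage, had opposite signs. Sox5 had a log2 fold change of 2.06 (SE 0.56, edgeR adjusted p = 0.0977), and Sox6 one of -1.76 (SE 0.37, edgeR adjusted p = 0.0590). The closest relatives of Sox9 were scarce: Sox8 had 0.0397 to 0.210 CPM over the 6 libraries and was not tested, and the log2 fold change of Sox10, a neural crest and glandular myoepithelial gene, was 1.40 (SE 0.91, edgeR adjusted p = 0.397).

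Foxa1 was low but present in every library. It had 350, 784 and 1233 reads in Ptpro-KO replicates 1 to 3, against 280, 170 and 263 in WT replicates 1 to 3. These corresponded to 9.66, 18.3 and 32.4 CPM in replicates 1 to 3 labelled Ptpro-KO, and to 8.10, 6.76 and 9.34 CPM in those labelled WT. Ptpro-KO replicate 1 lay barely above WT replicate 3, and the spread within the libraries labelled Ptpro-KO was wider than the distance between those 2. The means were 20.1 ± 11.5 CPM in the libraries labelled Ptpro-KO and 8.06 ± 1.29 CPM in those labelled WT (SD, n = 3 each), and the log2 fold change was 1.32 (SE 0.44, edgeR adjusted p = 0.140). Without Ptpro-KO replicate 3 it was 0.79 (SE 0.33).

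Foxa2 and Foxa3 were close to the detection limit in all libraries but 1 or 2. Foxa2, which in the mouse embryo patterns definitive endoderm, had 2, 56 and 419 reads in Ptpro-KO replicates 1 to 3, against 2, 0 and 0 in WT replicates 1 to 3. Ptpro-KO replicate 3 held 88.6% of its 6-library CPM and Ptpro-KO replicate 2 held 10.5%. A count of 0 allows up to 3 reads, which is 0.119 CPM in WT replicate 2 and 0.106 CPM in WT replicate 3. Foxa3, a liver and gut forkhead gene, had 3, 1 and 489 reads in Ptpro-KO replicates 1 to 3, against 5, 1 and 2 in WT replicates 1 to 3. Ptpro-KO replicate 3 held 97.3% of its CPM, and the other libraries of both labels overlapped. In Ptpro-KO replicate 2 Foxa2 reached 11.9% of its CPM in replicate 3 (95% exact interval 8.83% to 15.7%) and Foxa3 reached 0.182% (0.00460% to 1.02%). Intervals of this kind, taken from the reads of both libraries, cover counting error only.

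Gata4 reads lay mostly in the library with stomach transcripts. It had 67, 0 and 2252 reads in Ptpro-KO replicates 1 to 3, against 1, 1 and 2 in WT replicates 1 to 3. In CPM these were 1.85, 0 and 59.2 in Ptpro-KO replicates 1 to 3, and 0.0289, 0.0397 and 0.0710 in WT replicates 1 to 3. Ptpro-KO replicate 2 was the lowest of all 6 libraries, so the groups overlapped, while Ptpro-KO replicate 1 was the second highest. The 0 reads of Ptpro-KO replicate 2 allow at most 0.0702 CPM.

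Gata6 had a wider distribution than Gata4. It had 161, 58 and 1012 reads in Ptpro-KO replicates 1 to 3, against 34, 7 and 24 in WT replicates 1 to 3, that is 4.44, 1.36 and 26.6 CPM in replicates 1 to 3 labelled Ptpro-KO and 0.983, 0.278 and 0.852 CPM in those labelled WT. Every library labelled Ptpro-KO lay above every one labelled WT, though Ptpro-KO replicate 2 and WT replicate 1 were close. The means were 10.8 ± 13.8 CPM in the libraries labelled Ptpro-KO and 0.704 ± 0.375 CPM in those labelled WT (SD, n = 3 each), with a log2 fold change of 3.92 (SE 1.21, edgeR adjusted p = 0.122). Without Ptpro-KO replicate 3 the log2 fold change was 2.02 (SE 0.73), against 3.92 with all libraries. Another endodermal GATA gene, Gata5, had 0.662, 0.515 and 16.9 CPM in Ptpro-KO replicates 1 to 3, against 0.492, 0.239 and 0.462 CPM in WT replicates 1 to 3 (log2 fold change 3.90, SE 1.52, edgeR adjusted p = 0.184). Gata1, Gata2 and Gata3, GATA genes of blood cells and other tissues, had no library above 2.46 CPM. Gata2 and Gata3 were not called by edgeR, and Gata1 was not tested. Gata1 had 1.66, 0.234 and 0.920 CPM in Ptpro-KO replicates 1 to 3, against 0.289, 0.0795 and 0.0355 CPM in WT replicates 1 to 3.

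The 3 epithelial ETS genes each behaved differently. Spdef had 158, 78 and 966 reads in Ptpro-KO replicates 1 to 3, against 169, 36 and 43 in WT replicates 1 to 3, or 4.36, 1.83 and 25.4 CPM in replicates 1 to 3 labelled Ptpro-KO and 4.89, 1.43 and 1.53 CPM in those labelled WT. WT replicate 1 lay above Ptpro-KO replicates 1 and 2, so the groups overlapped. Its log2 fold change was 2.001 (SE 1.07, edgeR adjusted p = 0.311) with all libraries and 0.23 (SE 0.72) without Ptpro-KO replicate 3. The goblet cell sensor gene Ern2, which mucous cells use in folding mucins, had 0.718, 0.0936 and 51.1 CPM in Ptpro-KO replicates 1 to 3, and 0 CPM in all 3 WT libraries.

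Elf3 had 1562, 3116 and 3289 reads in Ptpro-KO replicates 1 to 3, against 1269, 867 and 410 in WT replicates 1 to 3, or 43.1, 72.9 and 86.4 CPM in replicates 1 to 3 labelled Ptpro-KO and 36.7, 34.5 and 14.6 CPM in those labelled WT. The groups did not overlap, but Ptpro-KO replicate 1 lay close to the WT libraries. The log2 fold change was 1.24 (SE 0.42, edgeR adjusted p = 0.143), and 1.02 (SE 0.46) without Ptpro-KO replicate 3. The fold changes of Gata6, Spdef and Foxa1 moved further when that library was left out.

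Ehf had 12149, 19409 and 8879 reads in Ptpro-KO replicates 1 to 3, against 14008, 11562 and 11584 in WT replicates 1 to 3, or 335.3, 454.0 and 233.4 CPM in replicates 1 to 3 labelled Ptpro-KO and 405.1, 459.5 and 411.2 CPM in those labelled WT. The groups overlapped, and Ptpro-KO replicate 2 was at the level of the WT libraries. Its log2 fold change was -0.32 (SE 0.25, edgeR adjusted p = 0.476), and -0.11 (SE 0.18) without Ptpro-KO replicate 3. Ehf alone among the 6 tested factors had a negative value. Elf5, an ETS gene beside Ehf on chromosome 2 that is known from mammary and other glands, had 16.4, 10.6 and 12.2 CPM in Ptpro-KO replicates 1 to 3, against 11.5, 11.7 and 11.4 CPM in WT replicates 1 to 3. The widely expressed ETS genes Elf1, Elf2, Elf4, Ets1 and Ets2 had log2 fold changes between -0.24 and 0.53. Of 12 relatives of the factors in the ETS, GATA and SOX families, 10 were tested and 0 passed the edgeR test in either direction (1 at an unadjusted p under 0.05, 0 by DESeq2), with a median log2 fold change of 0.41.

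Within a library the factors can be ranked by RPKM, which divides reads by transcript length. Ehf ranked first and Elf3 second in all 6 libraries, with Ehf at 61.4 to 122.9 RPKM in the libraries labelled Ptpro-KO and 94.1 to 115.4 RPKM in those labelled WT. The next rank differed between libraries. Sox9 held it in Ptpro-KO replicates 1 and 2, at 4.36 and 10.2 RPKM, and Gata4 in Ptpro-KO replicate 3, at 19.0 RPKM. In the WT libraries the next rank belonged to Spdef at 2.46 RPKM in replicate 1, and to Foxa1 at 2.07 and 2.81 RPKM in replicates 2 and 3. In Ptpro-KO replicate 3 the 7 factors below Elf3 lay between 5.59 and 19.0 RPKM, while in the WT libraries Gata4, Foxa2 and Foxa3 were all at or below 0.0653 RPKM. Nearly all reads of each factor, 97.4% or more, were listed under 1 transcript, so the values do not separate isoforms.

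Of the 6 simple keratins 3 were called, and Krt8, Krt18, Krt19 and Krt7 had larger fold changes than any tested factor. Krt8 had 108.3, 454.7 and 581.7 CPM in Ptpro-KO replicates 1 to 3, against 0.723, 0.636 and 0.391 CPM in WT replicates 1 to 3. Its partner Krt18 had 217.6, 176.5 and 252.3 CPM in Ptpro-KO replicates 1 to 3, against 3.53, 4.97 and 2.34 CPM in WT replicates 1 to 3. Krt19, a keratin of ducts and simple epithelia, had 217.0, 261.6 and 401.8 CPM in Ptpro-KO replicates 1 to 3, against 1.74, 0.278 and 0.142 CPM in WT replicates 1 to 3. Krt8, Krt18 and Krt19 rose, with log2 fold changes of 9.34 (SE 0.86), 5.90 (SE 0.35) and 8.62 (SE 1.04) and edgeR adjusted p values of 0.0125, 0.0125 and 0.0217. They were called without Ptpro-KO replicate 3 as well, with log2 fold changes of 8.90, 5.77 and 8.31. Krt7, a keratin of ducts and glands, had 296.6, 795.8 and 71.7 CPM in Ptpro-KO replicates 1 to 3, against 18.5, 3.97 and 4.37 CPM in WT replicates 1 to 3. Its log2 fold change was 5.43 (SE 1.18), with an edgeR adjusted p of 0.0623, and it was 5.92 (SE 0.95) without Ptpro-KO replicate 3. The gastrointestinal keratin Krt20 and the keratin Krt23 overlapped between the groups, with log2 fold changes of 2.20 (SE 1.54) and 0.22 (SE 0.60) with all libraries, and 0.86 (SE 1.57) and -0.72 (SE 0.33) without Ptpro-KO replicate 3. WT replicate 1 held 150 of the 160 Krt20 reads of the WT libraries, and without it the log2 fold change of Krt20 was 5.21 (edgeR adjusted p = 0.161).

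**Figure D2:**
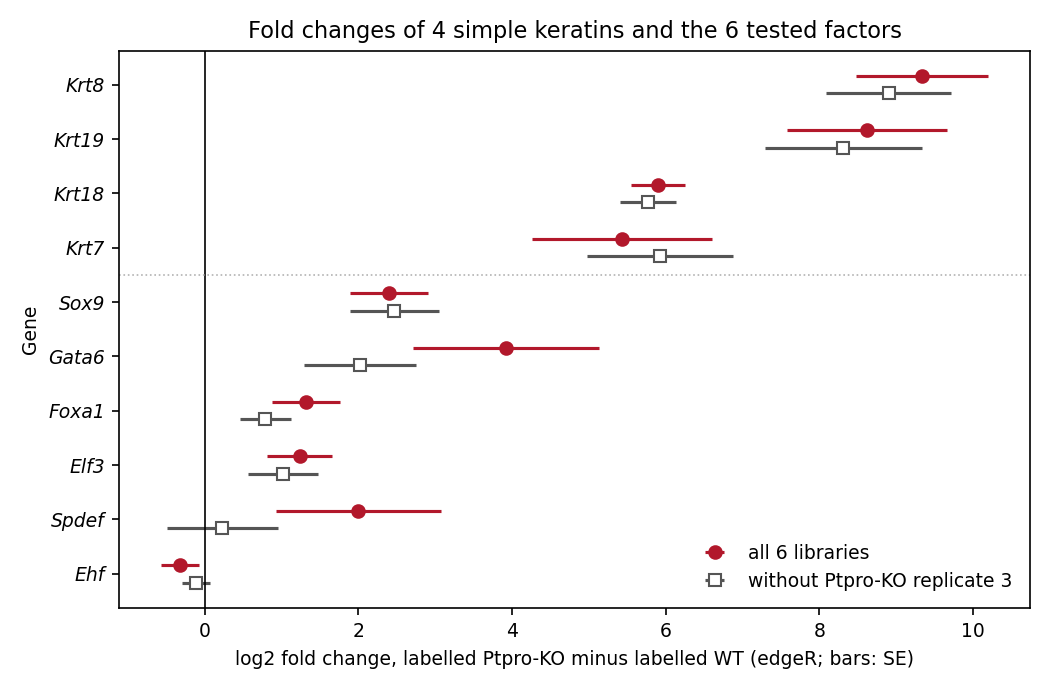
Log2 fold change, labelled Ptpro-KO minus labelled WT, of 4 simple keratins (above the dotted line) and the 6 tested factors, with bars for the SE; filled red circles use all 6 libraries and open squares leave out Ptpro-KO replicate 3. The keratins lie between 5.43 and 9.34, and the values of Gata6, Spdef and Foxa1 move towards 0 when Ptpro-KO replicate 3 is left out, while Sox9 stays at 2.40 and 2.47.

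Compared library by library, no single factor followed all of the keratins. Among the 3 libraries labelled Ptpro-KO, Krt8, Krt19, Foxa1 and Elf3 shared the order replicate 3, replicate 2, replicate 1. Many genes share any given order of 3 libraries, and the share over all tested genes was not counted. Sox9 was highest in replicate 2 and then in replicate 3, and Krt7 and the epithelial adhesion gene Epcam were highest in replicate 2 and lowest in replicate 3. Krt18 was almost level, at 86.2% and 69.9% of its replicate 3 value in replicates 1 and 2. Krt7 stood at 414% and 1110% of its replicate 3 value there. Gata6 and Spdef were highest in replicate 3 and lowest in replicate 2, the order of Krt18, and of Krt20 and Krt23. With Krt18 they shared the order only. Gata6 was at 16.7% and 5.10% of its replicate 3 value in replicates 1 and 2, and Spdef at 17.2% and 7.19%.

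**Figure D3:**
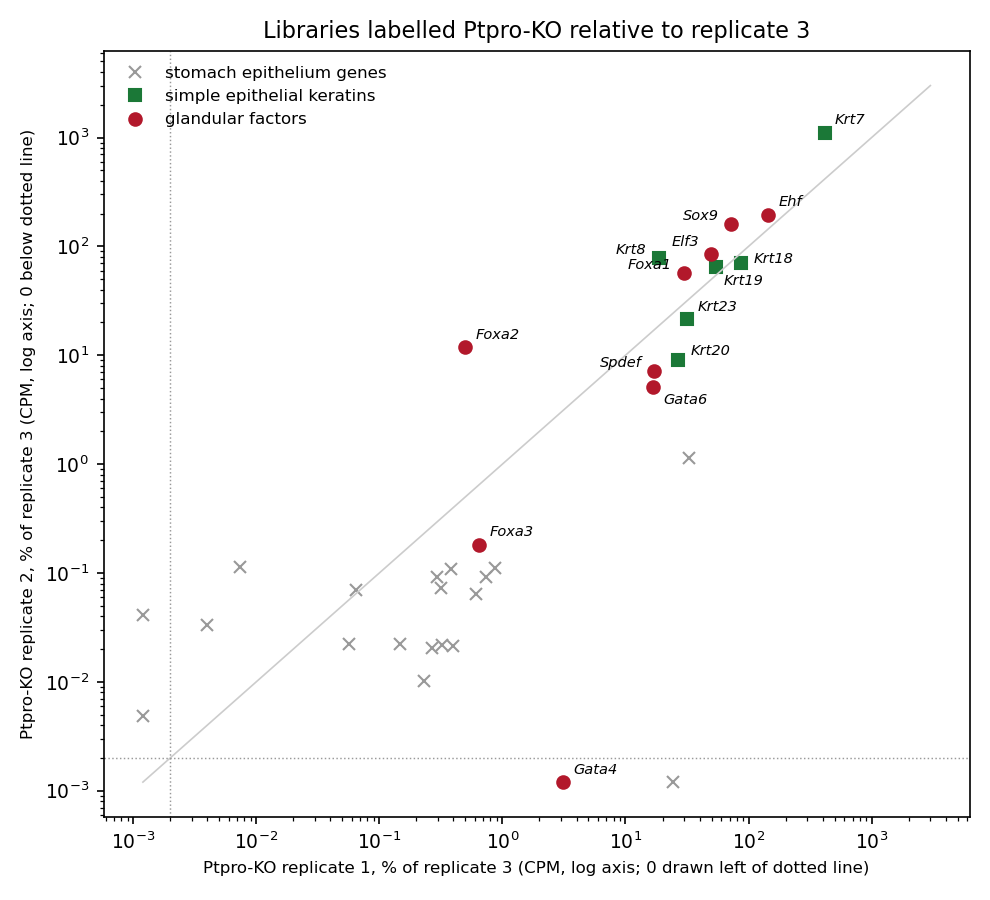
CPM of each gene in Ptpro-KO replicate 1 (horizontal) and replicate 2 (vertical) as a percentage of its CPM in Ptpro-KO replicate 3, both on log axes, for the glandular factors (red circles), 6 simple keratins (green squares) and stomach genes (grey crosses); genes with 0 reads are drawn beyond the dotted lines. Sox9, Elf3, Foxa1 and Ehf lie at 29.8% or more in both libraries, the keratins spread from 18.6% to 414% in replicate 1 and from 9.12% to 1110% in replicate 2, and Foxa3 lies near the stomach genes.

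The stomach genes gave a scale for the factors in replicates 1 and 2. Over 19 stomach genes with reads in Ptpro-KO replicate 3, the level in replicate 1 was a median of 0.296% of that in replicate 3, and in replicate 2 a median of 0.0408%. Their highest values were 32.8% in replicate 1 and 1.15% in replicate 2, both those of the water channel Aqp4. Aqp4 had 3.34 CPM in Ptpro-KO replicate 1, but also 4.28, 0.119 and 4.62 CPM in WT replicates 1 to 3. Next in replicate 1 came Gast at 24.2%, from 6 reads, and Ctse at 0.870%. The mucous neck and surface genes Muc6, Gkn1 and Tff1 were at 0.396%, 0.146% and 0.326% in replicate 1. Gata4 stood at 3.12% in replicate 1 (95% exact interval 2.41% to 3.98%) and Gata6 at 16.7% (14.1% to 19.7%). Both were above the median of the stomach genes and above Ctse, but below Gast and Aqp4. In replicate 2 Gata4 stood at 0% (0% to 0.146%), an interval that holds the median of the stomach genes, and Gata6 at 5.10% (3.84% to 6.65%), above the value of each stomach gene. Spdef was at 17.2% (14.4% to 20.3%) in replicate 1 and 7.19% (5.63% to 9.06%) in replicate 2, whereas Foxa3 was at 0.644% (0.132% to 1.89%) in replicate 1. The keratins had medians of 43.0% and 67.5% over 6 genes in replicates 1 and 2, and the 9 factors had medians of 17.2% and 11.9%. The part of the stomach transcripts in the values of the factors in replicate 3 was not tested.

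Other regulators of foregut epithelium were listed beside the factors. Hnf4a, a master gene of gut and liver epithelium, had 0.607, 0 and 32.6 CPM in Ptpro-KO replicates 1 to 3, against 0.0578, 0 and 0 CPM in WT replicates 1 to 3. Pdx1, which specifies pancreas, duodenum and gastric antrum, had 0.166, 0.0702 and 3.02 CPM in Ptpro-KO replicates 1 to 3, against 0.0289, 0.0397 and 0.0355 CPM in WT replicates 1 to 3. The intestinal genes Cdx1 and Cdx2 had at most 1 library with a read each, and both had 0 CPM in all libraries labelled Ptpro-KO. Xbp1, Klf5 and Foxq1 were the most abundant of the list of 20, and of 12 tested regulators 0 were called by edgeR in either direction (4 at an unadjusted p under 0.05, 2 by DESeq2). Klf5, a gene of basal and columnar gut epithelium, had 50.7, 62.4 and 72.0 CPM in Ptpro-KO replicates 1 to 3, all below the 110.7, 105.8 and 85.8 CPM of WT replicates 1 to 3 (log2 fold change -0.71, SE 0.17, edgeR adjusted p = 0.0763). The thyroid regulator Nkx2-1 showed 5.05, 5.92 and 4.94 CPM in Ptpro-KO replicates 1 to 3 and 4.22, 4.45 and 5.01 CPM in WT replicates 1 to 3, within a range of 4.22 to 5.92 CPM.

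**Figure D4:**
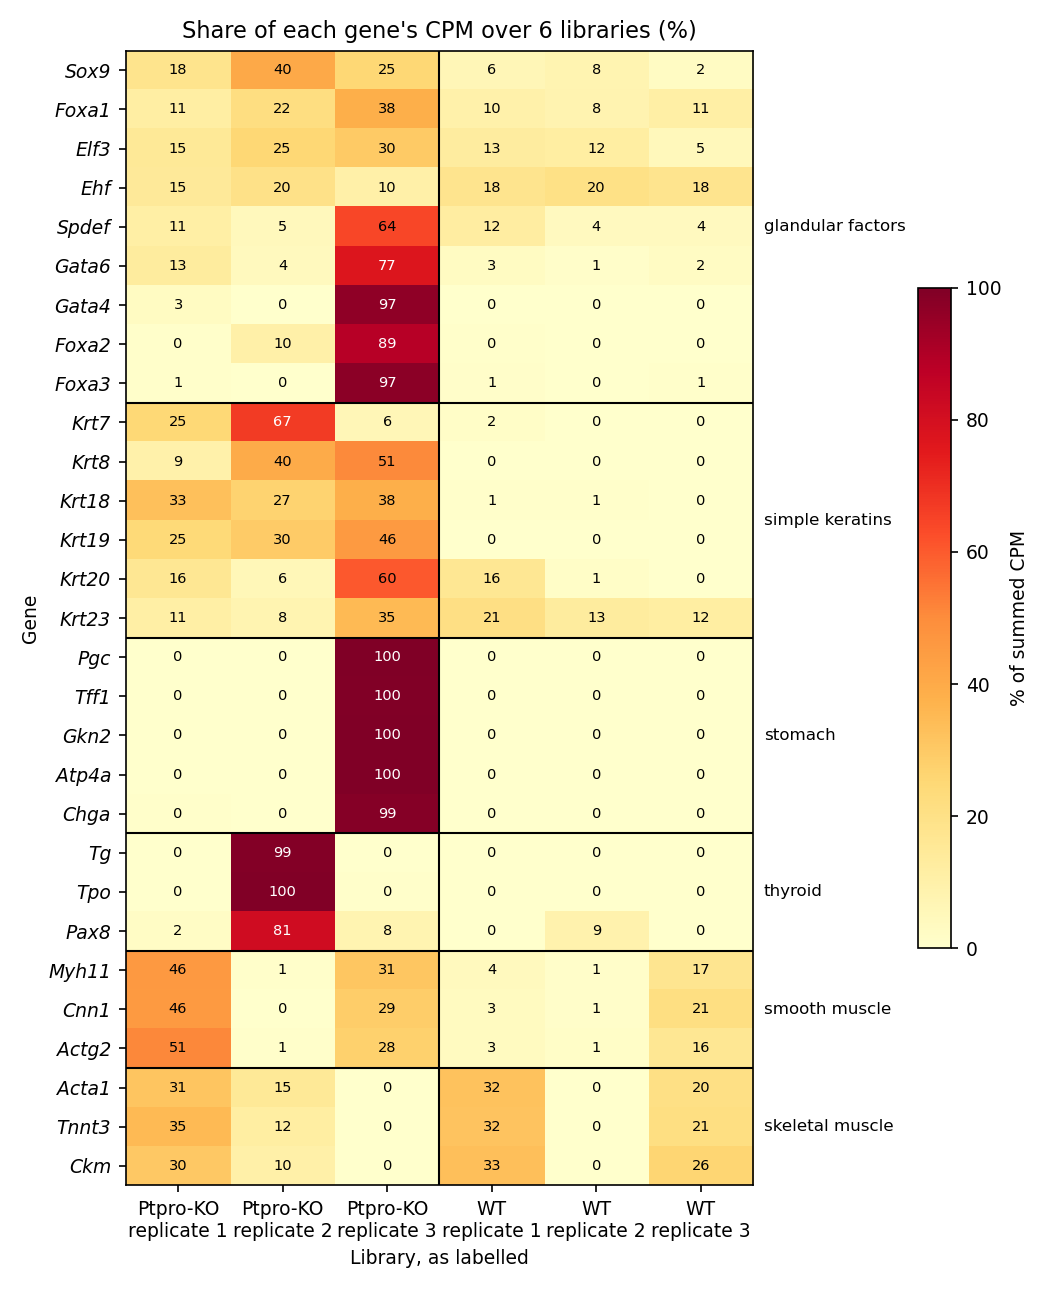
Share of each gene's CPM, summed over 6 libraries, found in each library (columns, labelled Ptpro-KO left and WT right), for the glandular factors, 6 simple keratins and marker genes of stomach, thyroid, smooth muscle and skeletal muscle that were picked after their values were seen. Gata4 and Foxa3 have 96.7% and 97.3% of their CPM in Ptpro-KO replicate 3 as the stomach genes do, while Sox9 has 18.3%, 40.5% and 25.3% in Ptpro-KO replicates 1 to 3.

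Genes of glandular tissues other than the stomach were counted in the same fit. In the salivary and mucous gland list 8 of 18 genes were tested, and 2 rose: the water channel Aqp5 (4.89, 21.9 and 25.6 CPM in Ptpro-KO replicates 1 to 3, against 0.0578, 0.199 and 0.320 CPM in WT replicates 1 to 3) and the potassium channel Kcnn4. The median log2 fold change of the 8 was 0.92. Lpo, the 1 gene of the 8 with a negative value, was lower in every library labelled Ptpro-KO than in every one labelled WT. Its log2 fold change was -3.25 (SE 0.85, edgeR adjusted p = 0.0894). Of the 18 genes, 4 had 0 reads in all 6 libraries, and in each WT library 10 had at most 3 reads. In the secretory and goblet list 1 of 13 tested genes rose, the choline transporter-like gene Slc44a4, with 6.35, 20.9 and 40.3 CPM in Ptpro-KO replicates 1 to 3 against 0.376, 0.0397 and 0.0710 CPM in WT replicates 1 to 3. Agr2, a protein disulphide isomerase of mucous cells, had 2.32, 5.15 and 184.1 CPM in Ptpro-KO replicates 1 to 3, against 0.492, 0.517 and 0.568 CPM in WT replicates 1 to 3, and did not pass (adjusted p = 0.107 by edgeR). In the pancreatobiliary and ductal list 2 of 6 tested genes rose, the osteopontin gene Spp1 and the bicarbonate transporter Slc4a4. The salivary, secretory and pancreatobiliary lists had 4, 7 and 2 genes at an unadjusted edgeR p under 0.05, and DESeq2 called 4, 5 and 2. Spp1 is also made by macrophages, and the source of its reads was not tested. All 7 tested macrophage genes were higher in every library labelled Ptpro-KO than in every one labelled WT, as were 16.8% of all tested genes. Of the 7, edgeR called 0, with 7 at an unadjusted p under 0.05, and DESeq2 called 7. By edgeR no gene was called among 7 tested stomach genes, 7 thyroid, 5 intestinal, 4 airway, 4 ciliated and 5 neuroendocrine genes. At an unadjusted p under 0.05 these lists had 6, 3, 2, 2, 1 and 1 genes in the same order, and DESeq2 called 0, 2, 0, 2, 0 and 1. The 6 stomach genes, Tff1, Tff2, Gkn1, Muc5ac, Pgc and Ctse, had at most 11 reads in any library labelled WT. They could not have passed the read filter without the libraries labelled Ptpro-KO, and Ptpro-KO replicate 3 held 98.9% or more of their CPM. Their unadjusted p values are therefore no support for a difference between the groups.

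Most squamous genes had negative fold changes, and some were called. Of 14 squamous regulators tested, 13 had a negative log2 fold change and 1 a positive one. By edgeR 4 fell and 0 rose: Zfp750, Ovol1, Grhl1 and Tfap2c, which promote keratinocyte differentiation or epidermal identity, had log2 fold changes of -0.87, -1.67, -0.85 and -1.55. At an unadjusted edgeR p under 0.05 there were 10, and DESeq2 called 10. For 10 regulators every library labelled Ptpro-KO lay below every one labelled WT, as for 2778 of all 17663 tested genes. Trp63, the master regulator of stratified epithelium, had 237.8, 183.6 and 388.8 CPM in Ptpro-KO replicates 1 to 3, against 408.8, 550.7 and 539.9 CPM in WT replicates 1 to 3 (log2 fold change -0.89, SE 0.30, edgeR adjusted p = 0.144). Of 11 squamous keratins 5 fell by edgeR, among them Krt14 and Krt6b with log2 fold changes of -1.41 and -1.92. All 11 had negative fold changes, and 7 were lower in every library labelled Ptpro-KO than in every one labelled WT. At an unadjusted edgeR p under 0.05 there were 7, and DESeq2 called 7. Smooth muscle genes, listed because the wall of the stomach and gut holds them, summed to 3802, 1131 and 1902 CPM in Ptpro-KO replicates 1 to 3 and 1434, 271.1 and 1630 CPM in WT replicates 1 to 3, with 0 of 8 called by edgeR, 0 by DESeq2 and 0 at an unadjusted p under 0.05. The fibroblast genes Col1a1 and Col1a2 rose, 2 of 8 tested. The part of these tissues in the values of the factors was not tested.

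The genes with profiles most like each tested factor were found by the mean absolute difference of log2 CPM over 6 libraries, each gene centred on its own mean. Sox9 was nearest to Epcam, at 0.218, and to Nupr1, at 0.250. Epcam had 212.5, 421.0 and 202.1 CPM in Ptpro-KO replicates 1 to 3, against 46.3, 73.6 and 30.4 CPM in WT replicates 1 to 3, and it rose (log2 fold change 2.47, SE 0.45, edgeR adjusted p = 0.0434). Foxa1 was nearest to Syne4 (0.133) and Ly6c2 (0.148), and Elf3 to 4732490B19Rik (0.182) and Adrb1 (0.210). Gata6 was nearest to Cystm1 (0.311) and Slc10a5 (0.314), and Spdef to Scml4 (0.298) and Arhgdig (0.312). Ehf was nearest to Gm24201 (0.047) and Mettl6 (0.063). Krt7, Krt8, Krt18 and Krt19 ranked from 9004 (Krt18 from Gata6) to 17660 (Krt19 from Ehf) among the 17663 tested genes by this distance. From Foxa1, Krt8 ranked 17633 and Krt19 17641, and from Elf3 they ranked 17628 and 17633. The distance also counts the size of a change. With 6 libraries, many genes lie near any profile, and these distances are descriptions.

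The limits of the test bear on all of these results. No gene at all was called by edgeR when replicate 2 or 3 labelled WT, or replicate 2 labelled Ptpro-KO, was left out, although 3369, 3078 and 4363 genes then had an unadjusted p under 0.05 and DESeq2 called 2247, 2030 and 3172, so the calls of the keratins, Epcam and the squamous genes rest on those libraries by this test.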

How the data were processed

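Total RNA of 6 tumours was sequenced; reads were aligned with Bowtie 0.12.2 and build mm10 is named, per the submitters' processing notes. The deposited files hold whole read counts per Ensembl transcript and, per the file headers, the authors' RPKM; the authors also deposited gene FPKM. Strandedness was not given in the sources used here, so reads of overlapping genes cannot be told apart. Counts were summed per gene name (100249 transcripts, 97.2% in GENCODE M21). The filter was edgeR's filterByExpr: in 3 libraries a CPM worth 10 reads at the median library size, and 15 reads in total. Testing used edgeR 4.0.16 (TMM, quasi-likelihood, Benjamini-Hochberg threshold 0.05, common coefficient of variation 0.40) in R 4.3.3. CPM uses TMM library sizes; log2 CPM has a prior count of 2. The SE is the log2 fold change over the root of F. Alternatives were DESeq2 1.42.0, limma 3.58.1, other scalings and filters, a sex term and left-out libraries. Exact binomial intervals have a level of 95%, and a count of 0 allows 3 reads. The pipeline was tested on simulated data. A table of scaled counts and 2 further columns were not used. The factors, lists and naming rule (all factors, keratins and tested relatives, called and most abundant list genes, nearest genes) were chosen with earlier results of these data known. Col2a1, Acan, Col11a1, Col9a3, Aqp4, Gast, Ctse, Lpo, Gata1, Sox8, Ern2, Hnf4a, Pdx1, Cdx1, Cdx2, Muc6, Gkn1 and the plotted markers were chosen after their values were seen.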

Additional observations from a re-analysis of the deposited data

How the results depend on the processing

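Among the 9 factors, DESeq2 called 4 (Foxa1, Elf3, Gata6 and Sox9) and library totals without TMM called 1 (Sox9, adjusted p = 0.0495 by edgeR), and the other alternatives, each left-out library included, called 0. Library totals moved the median log2 fold change of all genes from 0.034 to 0.179, and Sox9 is read against that shift. Over all genes edgeR called 725, 320 higher and 405 lower. DESeq2 called 3160 (1682 higher, 1478 lower), the sex term 186 (64 higher, 122 lower), library totals 590 higher, and limma on log2(RPKM + 0.1) 500 higher and 250 lower. With 1 library left out at a time the counts ran from 0 to 496, higher from 0 to 253 and lower from 0 to 243. Of the genes in the lists 20 were called, against 60 with DESeq2, 7 with the sex term and 0 to 18 with a library left out. The replicate block gave 237 genes (133 higher, 104 lower), 10 of the list genes and 0 of the factors. Deviations of same-numbered libraries correlated at 0.539, 0.08 and -0.243, so the numbers were not taken to pair the mice. Ptpro passed under library totals (4.15), DESeq2 (3.98), limma-voom (4.53), limma on log2(FPKM + 1) (2.32) and limma on log2(RPKM + 0.1) (4.10), all as log2 fold changes. Adjusted p values over 18 alternatives ran from 5.06e-05 to 0.154 for Sox9, 0.00165 to 0.303 for Gata6, 0.0277 to 0.320 for Foxa1, 0.0300 to 0.273 for Elf3, 0.150 to 0.881 for Spdef and 0.182 to 0.752 for Ehf. No factor changed sign in any of them. Among other genes named, none of them called, the sign of Krt23 turned under limma-voom (-0.081), the replicate block (-0.093), the sex term (-0.300) and limma on log2(FPKM + 1) (-0.051) and log2(FPKM + 0.1) (-0.058), and its log2 fold change ran from -0.72 to 0.569 with a library left out. That of Elf1 turned under library totals (0.060) and limma on log2(RPKM + 0.1) (0.061), and with a library left out Gata3 ran from -0.125 to 1.264 and Elf5 from -0.052 to 0.297. The cause of these shifts was not tested. Depth limits Foxa2, Foxa3 and Gata4, where 3 reads are 0.0702 to 0.119 CPM.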
